A study of Mus musculus with 8 samples.

Results

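The genes that encode potassium, sodium and voltage-gated calcium channels were examined in the first lower molars of mouse embryos at E18.5, shortly before birth. They were chosen by name alone, as the protein-coding genes whose mouse symbols begin with Kcn, Scn or Cacn in the forms used for channel subunits, and 134 of the 43629 Ensembl genes in the count files qualified. Another 5 genes with such symbols, Kcnab3os, Kcnd3os, Kcnmb4os1, Kcnmb4os2 and Kcnq1ot1, do not code for protein and were left out. RNA sequencing compared 4 K14Cre;Jagged1fl/fl embryos (K14J26, K14J28, K14J29 and K14J30), called mutants, with 4 littermates (J3, J5, J6 and J7), whose labels give the same floxed Jagged1 alleles and name no Cre. The littermates are called WT, as in the study. The keratin 14 promoter drives Cre in epithelium, so the mesenchyme of mutant molars keeps Jagged1, a ligand of Notch receptors, and the left and right molars of each embryo were pooled. Sex and the sharing of litters are not given for the embryos, and no embryo number is shared between the groups.

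Ion channels are membrane proteins that let selected ions pass when they open. Potassium channels let potassium leave the cell and hold the membrane potential negative, voltage-gated sodium channels carry the fast depolarization of excitable cells, and voltage-gated calcium channels let calcium enter on depolarization. Each has pore-forming subunits, and most bind auxiliary subunits that set gating or the amount of channel at the surface. In teeth, ameloblasts and odontoblasts move large amounts of calcium, bicarbonate and other ions into enamel and dentin, and channels also serve the nerves, vessels and muscle that lie in or near the germ.

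In total, 17327224 to 29792467 reads were counted on genes per embryo, and 3 counts correspond to 0.0998 to 0.166 CPM (counts scaled to the effective library size). Changes are given as log2FC, the log2 of the ratio of mutant to WT levels, ± its standard error, with the adjusted p of edgeR's quasi-likelihood test after Benjamini-Hochberg adjustment over all genes tested. Jag1, the deleted gene, fell in mutants (log2FC -1.19 ± 0.14, adjusted p = 0.00517). Summed markers of ameloblasts ran from 711 to 3421 CPM in WT embryos and from 3957 to 114675 CPM in mutants, with K14J26 first, then K14J29, K14J30 and K14J28, and 5 of the 6 tested markers were called higher. Amelx, the main enamel matrix protein, alone took 60581 CPM in K14J26. Summed odontoblast markers ran from 707 to 1993 CPM in WT and from 2345 to 7479 CPM in mutants. The sums of dental epithelium markers (4248 to 4948 CPM in WT and 4987 to 7541 CPM in mutants, with 1 of 5 genes called, Krt14, which rose by a log2FC of 0.96) and of osteoblast markers (722 to 896 CPM and 1004 to 1124 CPM, with 2 of 4 called higher) were also separated between the groups. Of 5 dental mesenchyme markers 3 fell without overlap, Pax9 (log2FC -0.82), Barx1 (-0.59) and Msx1 (-0.26), while Col1a1 rose (1.10). Skeletal muscle markers summed to 458 CPM in J6 and 235 CPM in J7 and to between 9.27 and 26.02 CPM in the other embryos, osteoclast markers reached 1808 CPM in K14J28 and at most 680 CPM elsewhere, and Xist reached 1928 and 1467 CPM in K14J28 and K14J29 and at most 1.09 CPM elsewhere. In bulk tissue, fewer cells of a type and less RNA per cell cannot be told apart. The part of these cell types in the changes below was not tested, also where marker levels are given beside a gene.

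Most channel genes were weakly expressed, and a few potassium and calcium channel genes stood well above the rest. Of the 134 genes, 91 reached 10 counts in 2 or more embryos of a group and were tested, 33 had counts below this limit, and 10 had no count in any embryo. The genes with no counts were Cacng2, Cacng6, Cacng7, Cacng8, Kcna10, Kcnj6, Kcnk9, Kcnk16, Kcnmb3 and Kcnv2. The 4 Cacng genes among them encode gamma subunits, and Kcnj6 a G protein-gated channel of neurons. Levels are compared between genes as mean CPM per kilobase of exon over the 8 embryos. Kcnk1, which encodes the tandem-pore potassium channel TWIK-1, had the highest level, with 78.2 CPM per kb. Cacnb3, a calcium channel beta subunit, followed with 19.6, then Kcnh1, a slow voltage-gated potassium channel of the ether-a-go-go family, with 10.01 CPM per kb, and Kcnj8, the pore of vascular ATP-sensitive potassium channels, with 9.604 CPM per kb. Cacna1g (7.48), a T-type calcium channel pore, Kcnk2 (6.65), the mechanosensitive TREK-1, Kcnf1 (5.53), an electrically silent modifier subunit, Kcnj2 (5.28), a strong inward rectifier, Kcnmb4 (4.59), the beta subunit of BK channels, and Kcnip2 (4.26 CPM per kb), a potassium channel-interacting protein, completed the first 10. The order differs between the groups: in WT embryos alone Kcnip2 (3.47 CPM per kb) and Kcnj2 (3.24) ranked below Cacna2d1 (3.92) and Kcne3 (3.65) and outside the first 10, whereas in mutants alone they had 5.05 and 7.31 CPM per kb. The ranges of neighbouring genes in this order overlapped between embryos below Kcnk1 and Cacnb3. Summed over all 134 genes, the channels took 863 to 918 CPM in WT embryos and 854, 960, 1062 and 1463 CPM in the mutants K14J28, K14J30, K14J29 and K14J26. The WT range lay inside the mutant range.

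**Figure D1:**
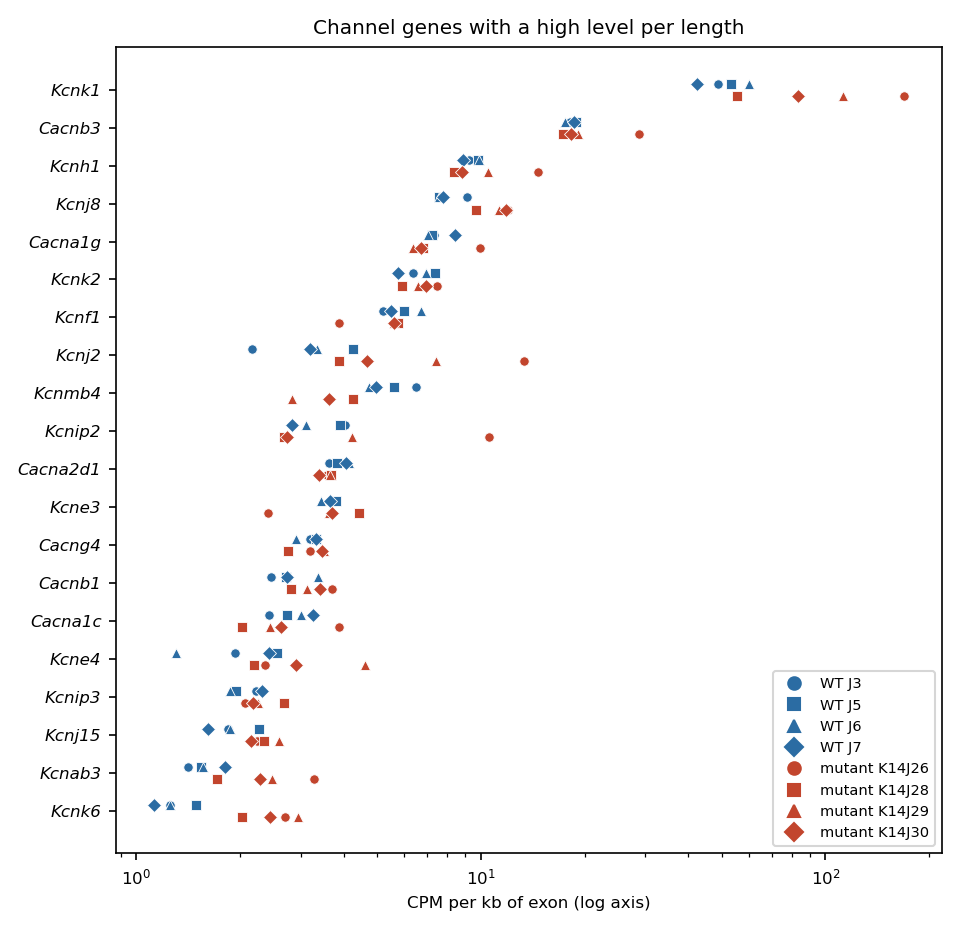
Level per length of 20 channel genes with high means (horizontal log axis, CPM per kb of exon), with a point per embryo, WT embryos in blue and mutants in red. Kcnk1 stands above the others at a mean of 78.2 CPM per kb. K14J26 is the highest mutant for several genes, among them Kcnk1, Cacnb3, Kcnh1, Cacna1g, Kcnj2 and Kcnip2.

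The comparison of the groups asks which channel genes change when the epithelium loses Jagged1. At an adjusted p under 0.05, 8 of the 91 tested channel genes rose in mutant molars (8.79%) and 8 fell (8.79%). Over all 17129 genes tested, 9.52% were called higher and 6.61% lower, so the share of channel genes called was near that of all genes. With all 8 embryos and no covariate, the rises and the falls lay mostly in different kinds of subunit. All 8 genes that rose encode pore-forming subunits, among 63 tested, whereas 6 of the 8 that fell encode auxiliary subunits, among 28 tested. Of the pore-forming genes 12.7% rose and 3.17% fell, and of the auxiliary genes none rose and 21.4% fell. Pore-forming and auxiliary classes were joined after the values were seen, and this split was not tested. Both sides of it depended on the fit. The higher channel genes numbered 2, 2, 1 and 1 without J3, J5, J7 or K14J29, beside 2.18%, 2.65%, 1.77% and 1.48% of all genes. With Xist as a covariate none of the 6 auxiliary genes kept its call. The pore gene Kcnc1 was the 1 lower gene left, beside 4.66% of all genes. In that fit the log2FC was -1.24 for Kcnip4, -0.50 for Cacna2d2, -0.94 for Kcne1l and -0.295 for Cacnb2. Without the covariate these were -1.22, -0.57, -1.18 and -0.46. Without J3, J7 or K14J29 the lower channel genes numbered 1, 0 and 0, beside 1.68%, 1.39% and 1% of all genes. Without J6 and J7 no channel gene was called, beside 0.0178% higher and 0.0237% lower of all genes. The pore-forming class counts 6 tested silent subunits of the Kcnf, Kcng, Kcns and Kcnv families, which form no channel alone, and none of them was called. Among potassium channels 7 of the 8 genes with a changed pore subunit rose, 1 sodium channel pore gene rose, and no calcium channel gene rose. The median log2FC of the tested channel genes was 0.02, against 0.01 over all genes tested, and 47 of the 91 values were above 0. Their median absolute log2FC was 0.38, against 0.22 over all genes. The groups were fully separated in 15 of the 16 called genes, and Kcnk1 was the exception. These genes were chosen by p-values from the same embryos, so their separation is no further evidence. Among the 91 tested genes, called or not, all 4 mutants lay above all WT embryos for 7 channel genes (7.69%) and below them for 10 (11%), while such separation was seen for 12.6% and 11.6% of all genes tested. Annotated genes on the opposite strand overlap 8.01% of the exons of Kcnk1 and 5.98% of those of Kcnma1, and these partners have no rows in the count files.

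**Figure D2:**
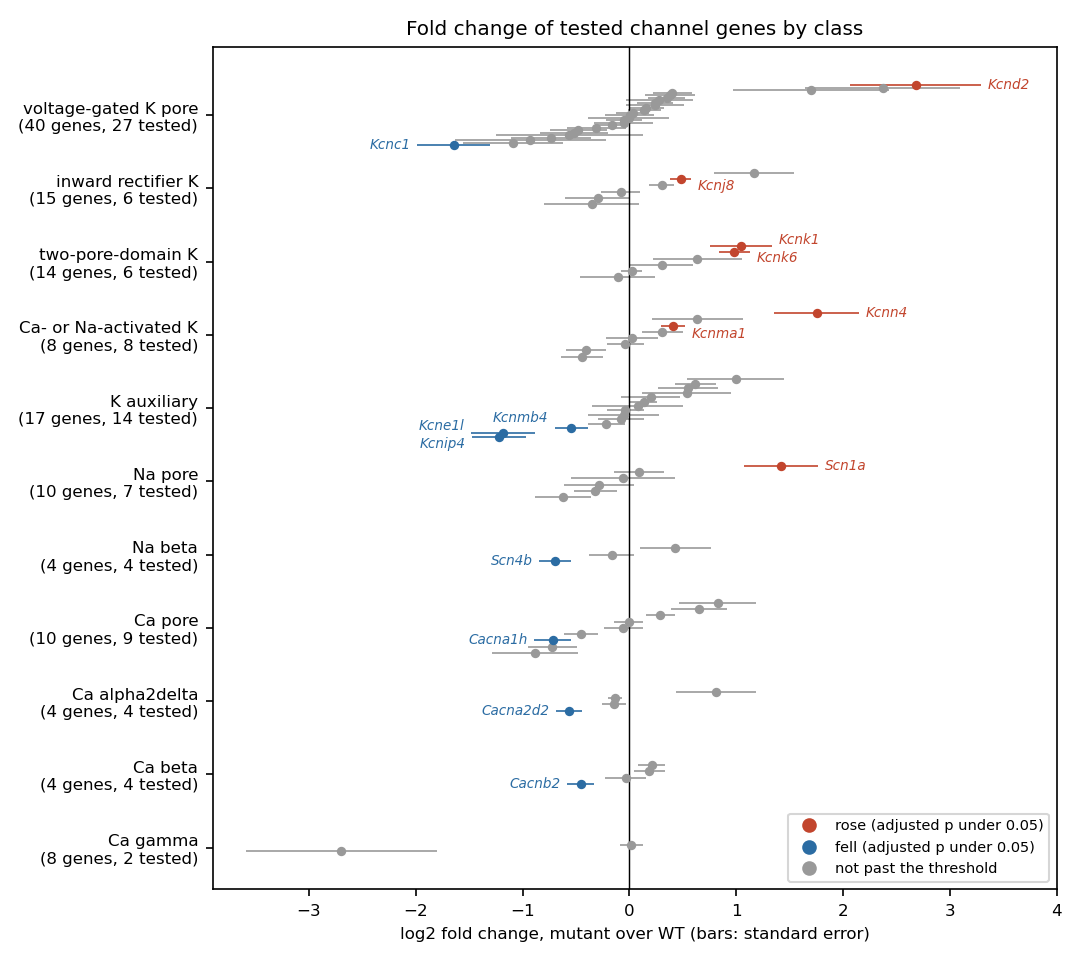
Log2FC of mutant over WT (horizontal axis) with its standard error (bars) for 87 of the 91 tested channel genes, in rows by class, with called genes in colour and named. The 7 drawn genes that rose all lie in rows of pore-forming subunits, and those that fell lie mainly in the rows of auxiliary subunits.

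Tandem-pore potassium channels, which carry the background leak that sets the resting potential, rose in 2 of 6 tested members, and none fell. Of all genes tested, 9.52% rose and 6.61% fell. Positions are on GRCm38. Kcnk1 (ENSMUSG00000033998, chr8:125995170-126030685, plus strand) had 109, 119, 134 and 94.8 CPM in J3, J5, J6 and J7. Its level in K14J26, K14J28, K14J29 and K14J30 was 379, 124, 252 and 186 CPM. The mutant K14J28 lay within the WT range and the other mutants lay above it. The gene rose (log2FC 1.05 ± 0.29, adjusted p = 0.0409), although the value was 0.72 without K14J26 (adjusted p = 0.0391). Its call held in 2 of the 8 fits with an embryo left out, with adjusted p values up to 0.113, and ended under robust fitting (adjusted p = 0.058). Kcnk6 (ENSMUSG00000046410, chr7:29221926-29232515, minus strand), which encodes TWIK-2, a close relative of TWIK-1, was less abundant and more even between embryos. It had 5.202, 6.18, 5.19 and 4.66 CPM in the WT embryos and 11.2, 8.41, 12.2 and 10.1 CPM in the mutants, in the same order of embryos as above. All mutants lay above all WT embryos, and the gene rose (log2FC 0.98 ± 0.15, adjusted p = 0.00848). Kcnk2, by contrast, had a log2FC of 0.02 ± 0.10 (adjusted p = 0.895) and 28.3 to 36.4 CPM in WT against 29.2 to 36.8 CPM in mutants. Kcnk5, an acid- and volume-sensitive channel, had the lowest value of the class, -0.11 ± 0.35 (adjusted p = 0.855).

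Channels opened by calcium link a rise in cell calcium to potassium efflux. Of the 8 tested genes for calcium- or sodium-activated potassium channels 2 rose, beside 9.52% of all genes tested. Kcnn4 (ENSMUSG00000054342, chr7:24370263-24386690, plus strand) encodes the intermediate-conductance channel of epithelia and blood cells. Its level was 2.88, 4.41, 4.82 and 2.94 CPM in the WT embryos and 22.5, 5.62, 13.8 and 9.11 CPM in the mutants. The lowest mutant, K14J28, was above the highest WT embryo by less than 1 CPM, and the gene rose (log2FC 1.76 ± 0.40, adjusted p = 0.0233). Without K14J26 the log2FC was 1.34 (adjusted p = 0.0182), and the call was lost without J3, J5, J7 or K14J29 (adjusted p up to 0.077). Red cell markers, from another cell type known to use this channel, summed to 347 to 519 CPM in WT and 260 to 641 CPM in mutants. Kcnma1 (ENSMUSG00000063142, chr14:23289431-24014491, minus strand), the pore of the large-conductance BK channel, which opens with both voltage and calcium, was at 5.59, 6.68, 6.84 and 7.02 CPM in WT and 8.46, 9.54, 8.04 and 8.73 CPM in mutants. The change was small and alike in the 4 mutants (log2FC 0.41 ± 0.11, adjusted p = 0.0411). The gene kept its call in 1 of 8 fits with an embryo left out, and lost it under upper-quartile scaling, library size scaling, no count filter and with Xist as a covariate. The BK beta subunit Kcnmb4 (ENSMUSG00000054934, chr10:116417861-116473878, minus strand), which slows the gating of the channel, went the other way. It had 21.6, 18.6, 15.8 and 16.5 CPM in WT embryos and 14.2, 14.1, 9.39 and 12.02 CPM in mutants, without overlap, and fell (log2FC -0.54 ± 0.15, adjusted p = 0.0421). The call of Kcnmb4 held in 2 of 8 fits with an embryo left out and ended with Xist as a covariate (adjusted p = 0.144). Exons of Kcnmb4 overlap those of 2 antisense genes for 10.7% (Kcnmb4os1) and 20.8% (Kcnmb4os2) of their length, and the kit does not mark strand, so reads of these stretches cannot be told apart. Kcnmb4os2 was at 2.03 CPM on average in WT and 0.90 CPM in mutants, far below Kcnmb4. Among the small-conductance SK channels, Kcnn1, Kcnn2 and Kcnn3 had log2FC values of 0.31, -0.04 and 0.03, none called. The lowest value of the class was that of Kcnu1, a pH-gated channel best known from sperm, -0.45 ± 0.20 (adjusted p = 0.139).

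To show the sequence next to the start of the called potassium channel genes that hold a motif of interest, the 250 bases upstream of the RefSeq start were searched on both strands for TGGGAA, the core letters bound by RBPJ, the DNA-binding partner of Notch receptors, and for the E-box CACGTG, which is its own reverse complement. Of 32851 such windows over all genes, 21.6% held TGGGAA and 6.02% held CACGTG. Among the 89 windows of tested channel genes the shares were 20.2% and 5.62%. A window was found for 6 genes that rose and for 7 that fell. Kcnd2, the gene with the largest rise, was the single called gene whose window held TGGGAA, 97 bases before the start, and Kcnn4 was the single called gene with CACGTG, 133 bases before the start. The 2 windows, both on the plus strand of GRCm38.p6 and read 5′ to 3′, lie at chr6:21215096-21215345 for Kcnd2 and chr7:24370013-24370262 for Kcnn4, with the motif in capitals. These are matches of letters, and binding was not measured.
Kcnd2: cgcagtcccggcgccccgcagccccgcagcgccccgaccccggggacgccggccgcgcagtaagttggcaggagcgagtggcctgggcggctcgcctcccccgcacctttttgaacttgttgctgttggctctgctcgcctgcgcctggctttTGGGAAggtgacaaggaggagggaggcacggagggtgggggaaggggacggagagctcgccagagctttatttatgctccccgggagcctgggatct
Kcnn4: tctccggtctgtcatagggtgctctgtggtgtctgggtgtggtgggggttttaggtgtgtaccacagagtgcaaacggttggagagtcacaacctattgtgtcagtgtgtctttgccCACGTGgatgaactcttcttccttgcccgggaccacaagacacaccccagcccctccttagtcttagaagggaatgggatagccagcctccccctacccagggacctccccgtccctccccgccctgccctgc

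Voltage-gated potassium channels repolarize the membrane after depolarization, and form the largest class, with 40 genes of which 27 were tested. Kcnd2 rose and Kcnc1 fell. Kcnd2 (ENSMUSG00000060882, chr6:21215503-21729805, plus strand) carries a fast, inactivating A-type current. It was low in WT embryos, with 0.553, 1.195, 1.14 and 0.743 CPM, and had 13.9, 1.995, 4.78 and 3.02 CPM in the mutants. The groups did not overlap, the mutants spread widely, and the gene rose (log2FC 2.68 ± 0.61, adjusted p = 0.0237). Without K14J26 the log2FC was 1.84 (adjusted p = 0.0111), and the call was lost without J3, J5, J7 or K14J29 (adjusted p up to 0.0784). Kcnip4 (ENSMUSG00000029088, chr5:48389502-49524907, minus strand), a calcium-binding partner that modifies the gating of the Kcnd channels, fell. Its level was 6.198, 5.44, 6.84 and 7.697 CPM in WT and 1.87, 3.62, 1.94 and 3.76 CPM in mutants, and the groups lay apart (log2FC -1.22 ± 0.25, adjusted p = 0.0187). The opposite-strand gene 5730480H06Rik overlaps 4.63% of the exons of Kcnip4, and its own level was 10.8 CPM in WT and 10.7 CPM in mutants on average. The other partners in the family, Kcnip1, Kcnip2 and Kcnip3, had log2FC values of -0.08, 0.54 and 0.14, none called. Kcnip2 reached 36.7 CPM in K14J26 against 9.82 to 14.1 CPM in WT, and had 9.31, 14.7 and 9.54 CPM in K14J28, K14J29 and K14J30. Without K14J26 its log2FC was -0.10 (adjusted p = 0.733), so this embryo set the direction.

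The genes of the Kcnc family encode rapidly deactivating channels that let neurons fire at high rates. Kcnc1 (ENSMUSG00000058975, chr7:46396497-46438704, plus strand) was scarce, at 1.16, 0.907, 0.726 and 1.15 CPM in WT and 0.384, 0.466, 0.208 and 0.194 CPM in mutants, and fell (log2FC -1.65 ± 0.34, adjusted p = 0.0183). These values come from 5 to 34 counts per embryo, and the gene passed the count filter only through the WT embryos, where it was higher. Kcnc4, of the same family, had a log2FC of 0.28 ± 0.32 (adjusted p = 0.554). The abundant members of the class did not pass the threshold. Kcnh1 had 65.2 to 72.2 CPM in WT and 61.2 to 107 CPM in mutants, with a log2FC of 0.16 ± 0.16 (adjusted p = 0.506), and Kcnf1 had -0.17 (adjusted p = 0.4097). Kcnh3 and Kcna3 showed large positive values without passing, 2.37 ± 0.73 (adjusted p = 0.0539) and 1.70 ± 0.73 (adjusted p = 0.132), and in both the value of K14J26 stood out, at 15.7 and 5.33 CPM against at most 4.503 and 1.14 CPM in the other embryos. The silent subunits Kcng1, Kcng2, Kcns1, Kcns3 and Kcnv1, which form no channel alone, had log2FC values of 0.24, -0.48, -0.52, 0.002 and -0.01, and the delayed rectifier Kcnb2 had 0.40, none called. The members of the Kcnq family, which form M-type and slow delayed rectifier currents, ranged in log2FC from -0.31 for Kcnq1 to 0.38 for Kcnq3, and none was called.

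Inward rectifiers pass potassium near the resting potential, and Kcnj8 was the 1 of 6 tested members that rose, beside 9.52% of all genes. Kcnj8 (ENSMUSG00000030247, chr6:142564837-142571614, minus strand) had 23.2, 19.3, 19.3 and 19.9 CPM in the WT embryos and 30.5, 24.6, 28.9 and 30.1 CPM in mutants. Every mutant lay above every WT embryo, and the difference was modest (log2FC 0.48 ± 0.10, adjusted p = 0.0171). Its regulatory partner in vessels, Abcc9, which lies beside it on the chromosome, had 60.4 to 73.02 CPM in WT and 65.5 to 89.3 CPM in mutants (log2FC 0.17, adjusted p = 0.309). Summed markers of pericytes and vascular smooth muscle ran from 448 to 524 CPM in WT and from 367 to 495 CPM in mutants, and of endothelium from 265 to 295 CPM and from 216 to 267 CPM. Their part in the rise of Kcnj8 was not tested. Kcnj2 had 11.8, 23.2, 18.2 and 17.4 CPM in WT and 72.5, 21.1, 40.3 and 25.4 CPM in mutants, with overlap, and did not pass (log2FC 1.17 ± 0.37, adjusted p = 0.0601). It was called by DESeq2, with no count filter, with Xist as a covariate and without K14J28 (adjusted p = 0.0199). Without K14J26 its log2FC was 0.71 (adjusted p = 0.0731). At the low end was Kcnj3, a G protein-gated channel of heart and neurons, with a log2FC of -0.35 ± 0.45 (adjusted p = 0.606).

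Auxiliary subunits of potassium channels fell in 3 of 14 tested members and rose in none, beside 6.61% lower and 9.52% higher of all genes. Besides Kcnmb4 and Kcnip4, Kcne1l (ENSMUSG00000090122, chrX:142304752-142306294, minus strand) fell. It encodes a small single-pass protein of the KCNE family that binds voltage-gated channels. It had 2.93, 3.05, 3.89 and 4.69 CPM in WT and 1.105, 1.43, 1.21 and 2.68 CPM in mutants (log2FC -1.18 ± 0.30, adjusted p = 0.0317). The gene lies on the X chromosome, and the 2 mutants with high Xist, K14J28 and K14J29, had values between those of K14J26 and K14J30. With Xist as a covariate its log2FC was -0.94 (adjusted p = 0.126), and without J6 and J7 it was -0.90 (adjusted p = 0.239). Kcnmb1, the BK beta subunit of smooth muscle, had the highest log2FC of the class, 0.995 ± 0.45 (adjusted p = 0.1502), from at most 0.62 CPM in any embryo. Kcne3 and Kcne4, also of the KCNE family, had log2FC values of -0.04 and 0.55, and Kcnab3, a cytoplasmic beta subunit, had 0.62 ± 0.19 (adjusted p = 0.0577).

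Voltage-gated sodium channels were weakly expressed throughout. Summed neuronal markers ran from 184 to 234 CPM in WT and from 204 to 329 CPM in mutants, and nearly all of the sum came from Tubb3, which was called higher (log2FC 0.48 ± 0.14, adjusted p = 0.0448), and Stmn2, which was not (0.36 ± 0.22 (adjusted p = 0.283)). Of the other 6 markers of the list none was called, and Prph was too scarce for the test. The neurofilament genes Nefl and Nefm had log2FC values of -1.38 and -1.17 and Elavl4 had 1.10, and the part of neurons in the changes of the sodium channel genes was not tested. Of 7 tested pore genes, Scn1a rose, and of 4 beta genes, Scn4b fell, beside 9.52% higher and 6.61% lower of all genes. Scn1a (ENSMUSG00000064329, chr2:66270778-66440840, minus strand), a channel of central neurons, had 0.443, 0.824, 0.311 and 0.2701 CPM in WT embryos. The mutants had 1.35, 1.06, 1.45 and 1.12 CPM, all above the WT embryos and close to each other (log2FC 1.42 ± 0.35, adjusted p = 0.0293). These values come from 8, 20, 6 and 8 counts in J3, J5, J6 and J7 and 28 to 42 counts in mutants. The gene thus passed the count filter only through the group in which it was higher. J6 and J7 were the lowest embryos, and without both the log2FC was 0.94 (adjusted p = 0.2002). The other tested pore genes of the same cluster on chromosome 2 were not called, with log2FC values of 0.09 for Scn2a, -0.06 for Scn3a, -0.29 for Scn7a and -0.62 for Scn9a. Scn9a, the channel of pain-sensing neurons, was the lowest of the class (log2FC -0.62 ± 0.26, adjusted p = 0.125), and Scn7a, an atypical sodium-sensing channel of glia, had the highest level per length, 0.247 CPM per kb. Scn4b (ENSMUSG00000046480, chr9:45138395-45154152, plus strand), an adhesion-like beta subunit, had 3.54, 4.45, 4.98 and 4.52 CPM in WT and 2.498, 2.66, 2.67 and 2.99 CPM in mutants. The groups lay apart with little spread among the mutants (log2FC -0.69 ± 0.15, adjusted p = 0.0206). Schwann cell markers summed to 48.5 to 63.6 CPM in WT and 35.1 to 46.6 CPM in mutants, and also did not overlap between the groups. Scn3b, with the highest log2FC of the beta genes, had 0.43 ± 0.33 (adjusted p = 0.384), and Scn2b had -0.17 ± 0.21 (adjusted p = 0.611).

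Voltage-gated calcium channel genes fell in 3 of 19 tested members (15.8%) and rose in none, beside 6.61% lower and 9.52% higher of all genes. The 3 were a pore gene and genes of 2 kinds of auxiliary subunit. Cacna1h (ENSMUSG00000024112, chr17:25374285-25433783, minus strand) is the pore of a low-voltage-activated T-type channel. It had 13.6, 12.8, 16.96 and 20.7 CPM in WT and 9.75, 11.2, 7.69 and 10.4 CPM in mutants, without overlap (log2FC -0.72 ± 0.17, adjusted p = 0.0282). The highest WT values were those of J6 and J7, the embryos with muscle transcripts, and without both the log2FC was -0.44 (adjusted p = 0.213). The other T-type genes differed from it in size: Cacna1g, the calcium channel pore gene with the highest level per length, had 71.2 to 85.04 CPM in WT and 64.6 to 101 CPM in mutants, with a log2FC of -0.01 ± 0.14 (adjusted p = 0.973), and Cacna1i, at under 1 CPM in every embryo, had -0.88 ± 0.40 (adjusted p = 0.149). Cacna2d2 (ENSMUSG00000010066, chr9:107399612-107529343, plus strand), an alpha2delta subunit that raises the number of channels at the surface, had 17.9, 14.5, 15.5 and 19.5 CPM in WT embryos and 12.9, 11.4, 10.3 and 10.8 CPM in mutants. It fell in all 4 mutants relative to every WT embryo (log2FC -0.57 ± 0.12, adjusted p = 0.0188). Cacna2d1, the most abundant of its class, had -0.13 ± 0.06 (adjusted p = 0.175), and Cacna2d4 0.81 ± 0.37 (adjusted p = 0.153). Cacnb2 (ENSMUSG00000057914, chr2:14603088-14987908, plus strand), a cytoplasmic beta subunit, had 12.1, 12.1, 13.7 and 15.6 CPM in WT and 11.5, 8.68, 8.83 and 10.04 CPM in mutants and fell slightly (log2FC -0.46 ± 0.13, adjusted p = 0.0424). The call held in 1 of 8 fits with an embryo left out. The log2FC was -0.31 without J6 and J7 (adjusted p = 0.289) and -0.295 with Xist as a covariate (adjusted p = 0.188). Cacnb3 and Cacnb1 had log2FC values of 0.19 and 0.21, neither called.

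**Figure D3:**
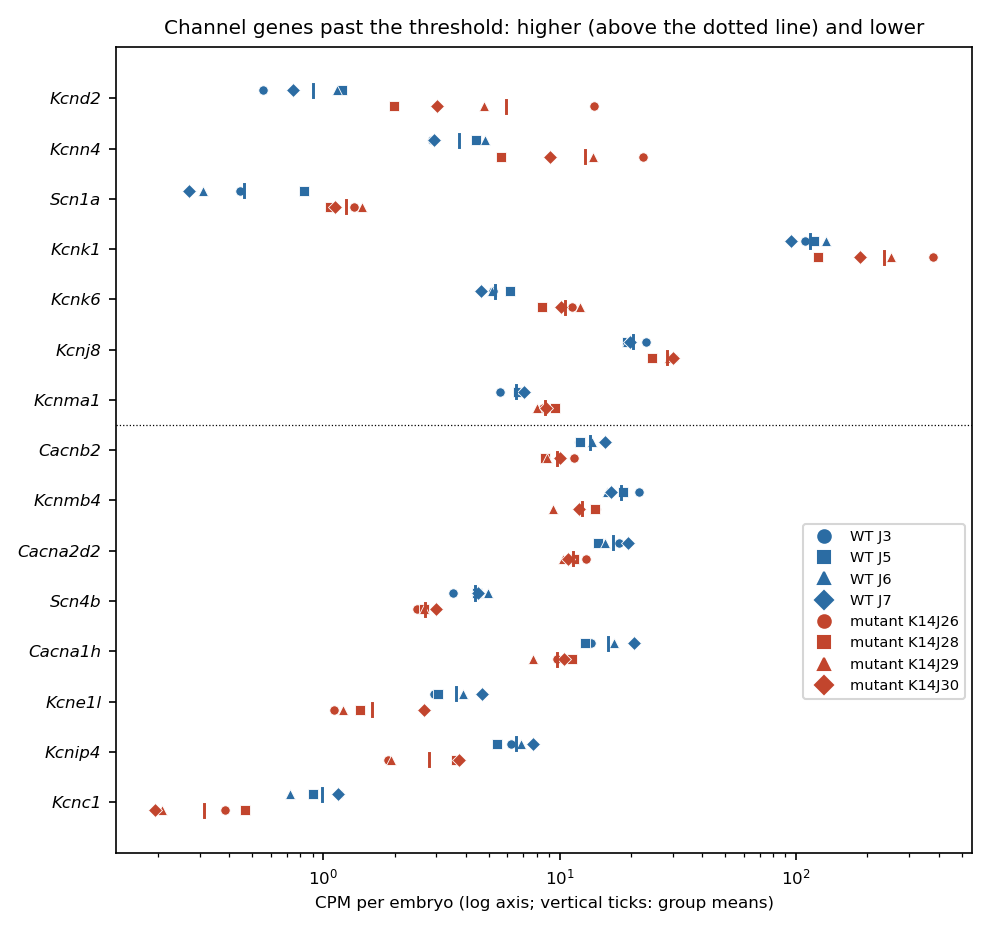
CPM (horizontal log axis) of 15 of the 16 called channel genes in each embryo, WT in blue above and mutants in red below within each row, with short vertical lines at the group means. K14J26 is the highest mutant for Kcnd2, Kcnn4, Kcnk1 and Kcnj8, and K14J28 the lowest for each gene that rose but Kcnma1.

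Among high-voltage-activated pores, which open at stronger depolarization, none was called. Cacna1d, an L-type channel of endocrine and pacemaker cells, had the highest value, 0.83 ± 0.36 (adjusted p = 0.135), with 50.6 CPM in K14J26 and 12.6 to 17.8 CPM in WT. K14J28, K14J29 and K14J30 had 14.4, 22.96 and 17.1 CPM. Without K14J26 the log2FC was 0.30 (adjusted p = 0.23), while the gene was called without K14J28 (adjusted p = 0.049) and with Xist as a covariate. The exons of Cacna1d overlap those of the opposite-strand gene Chdh for 4.67% of their length, and Chdh rose (log2FC 1.65, adjusted p = 0.0122). Cacna1b, the N-type channel of nerve endings, lay below WT in all mutants, -0.72 ± 0.23 (adjusted p = 0.0594), as an uncalled gene. Cacna1c, the L-type channel of heart and smooth muscle, had -0.06 ± 0.18 (adjusted p = 0.848). Cacna1s, the L-type channel of skeletal muscle, was at 12.3 to 15.1 CPM in the WT embryos, with J3 and J5, which had few muscle transcripts, as high as J6 and J7, and its log2FC was -0.45 ± 0.16 (adjusted p = 0.0791). The antisense gene Gm37759 overlaps 20% of its exons and had at most 0.61 CPM in any embryo. Cacng1, the gamma subunit of the same muscle channel, was instead at least 3-fold higher in both J6 and J7 than in every other embryo. It was the 1 tested channel gene with this pattern, which was seen in 49 of the 17129 genes tested. The pattern also held for 11 of the 12 muscle markers, by which J6 and J7 had been set apart. Cacng1 passed the count filter through J6 and J7 alone, with 29 and 47 counts. It had 0.111, 0.247, 1.504 and 1.59 CPM in J3, J5, J6 and J7 and at most 0.27 CPM in the mutants, and its log2FC was -2.70 ± 0.90 (adjusted p = 0.0675). The part of muscle in this value was not tested. Cacng4 had 0.02 ± 0.10 (adjusted p = 0.914).

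A rule with the quantities named in the methods was also applied to the present fit, and reading its fold change limit on the log2 scale was a choice made here. By an unadjusted p no higher than 0.05 and an absolute log2FC no smaller than 0.5, 13 of the 91 channel genes were higher (14.3%) and 11 lower (12.1%), shares above the 8.33% and 5.85% of all genes tested, and this difference was not tested. Those criteria leave out Kcnj8, Kcnma1 and Cacnb2, whose changes are smaller, and add 7 higher genes (among them Kcnab3, Cacna1e, Cacna1d, Kcnj2, Kcna3 and Kcnh3) and 4 lower genes (Cacng1, Kcna7, Cacna1b and Scn9a), none of which has an adjusted p under 0.05.

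Within the mutants, several channel genes followed the order of the summed enamel markers. The order K14J26, K14J29, K14J30 and K14J28, from high to low, was that of 4 of the 8 genes that rose, among them Kcnk1, Kcnn4 and Kcnd2, and of none of the 8 that fell. It was also seen in 38.1% of all genes called higher, in 13.6% of all genes tested and in 14 of the 91 tested channel genes (15.4%). Kcnk6, Kcnj8, Kcnma1 and Scn1a did not follow it. As the enamel markers were also higher in mutants than in WT, their part in the rise of these genes was not tested.

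Transporters and partners that work with the channels were read from a list of 74 further genes, of which 69 were tested, 12 rose and 4 fell, beside the 9.52% and 6.61% of all genes. The plasma membrane calcium pump gene Atp2b1 had 121 to 189.9 CPM in WT and 226 to 537 CPM in mutants (log2FC 1.26 ± 0.26, adjusted p = 0.0184), Atp2b4 had a log2FC of 0.49, and the sodium-calcium exchanger Slc8a3 had 0.65. The calcium release channels Itpr3 and Ryr3 rose by log2FC values of 1.03 and 1.27, while Ryr1, that of skeletal muscle, fell (log2FC -0.83). Other calcium genes of the list, among them Atp2a2, Atp2a3, Atp2b2, Slc8a1, Slc24a4, Itpr1, Itpr2, Ryr2, Orai1, Orai2, Orai3, Stim1, Stim2 and Trpv4, were not called. The channel-kinase Trpm7 had 232 to 374 CPM in WT and 452 to 914 CPM in mutants (log2FC 1.17 ± 0.23, adjusted p = 0.0167). The pump regulator Fxyd3 had 0.98, the membrane anchor Ank2 0.54 and the lysosomal channel Tpcn2 0.25. Unc80, a partner of the sodium leak channel, had 2.28 from at most 1.68 CPM. With 3 to 9 counts in WT embryos, it passed the count filter only through the mutants. Stac3, an adaptor of the skeletal muscle calcium channel, had 8.74, 14.96, 18.4 and 8.47 CPM in WT and 167, 20.1, 72.3 and 44.1 CPM in mutants (log2FC 2.58 ± 0.59, adjusted p = 0.0237). It followed the order of the summed enamel markers and not that of the muscle markers. Atp2a1, the calcium pump of muscle, was instead highest in J6 and J7 (log2FC -3.64 ± 1.08, adjusted p = 0.0492). Stac and the proton channel Hvcn1 also fell, with log2FC values of -0.63 and -0.75.

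The calls depended on some embryos and not on others. Without K14J26 all 16 calls held and no channel gene was added. Omitting single embryos left 1 to 13 channel genes higher and 0 to 8 lower, and the share of all genes called moved with them. Without K14J29 it was 1.48% for higher genes, and 170 of 16936 genes were lower. Kcnk6 kept an adjusted p under 0.05 in all 8 of these fits (0.0042 to 0.0375), and the other 15 genes in 1 to 5 of them. The call held in 5 of these fits for Cacna2d2, Kcnip4, Kcnj8 and Kcnc1, in 4 for Cacna1h, Kcnn4, Kcnd2, Scn1a and Scn4b, in 3 for Kcne1l, in 2 for Kcnk1 and Kcnmb4 and in 1 for Cacnb2 and Kcnma1. Without J6 and J7 no channel gene was called in either direction, with 11 higher and 9 lower at an unadjusted p under 0.05, and 0.0178% and 0.0237% of all genes were called. The signs of all 16 log2FC values stayed the same there and in each leave-one-out fit. With the level of Xist as a covariate, 10 channel genes were higher, 6 of them among the 8, and 1 was lower, beside 8.82% and 4.66% of all genes. Kcnc1 was that lower gene. The calls of Cacna1h, Cacna2d2, Cacnb2, Kcnip4, Kcnmb4, Kcne1l and Scn4b ended in this fit, at adjusted p values of 0.0517 to 0.188, and so did those of Scn1a (0.066) and Kcnma1 (0.11). The log2FC values of Kcnip4, Cacna1h and Cacna2d2 were -1.24, -0.68 and -0.50 there, near those without the covariate (-1.22, -0.72 and -0.57). Kcne1l had -0.94 instead of -1.18 and Cacnb2 -0.295 instead of -0.46.

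**Figure D4:**
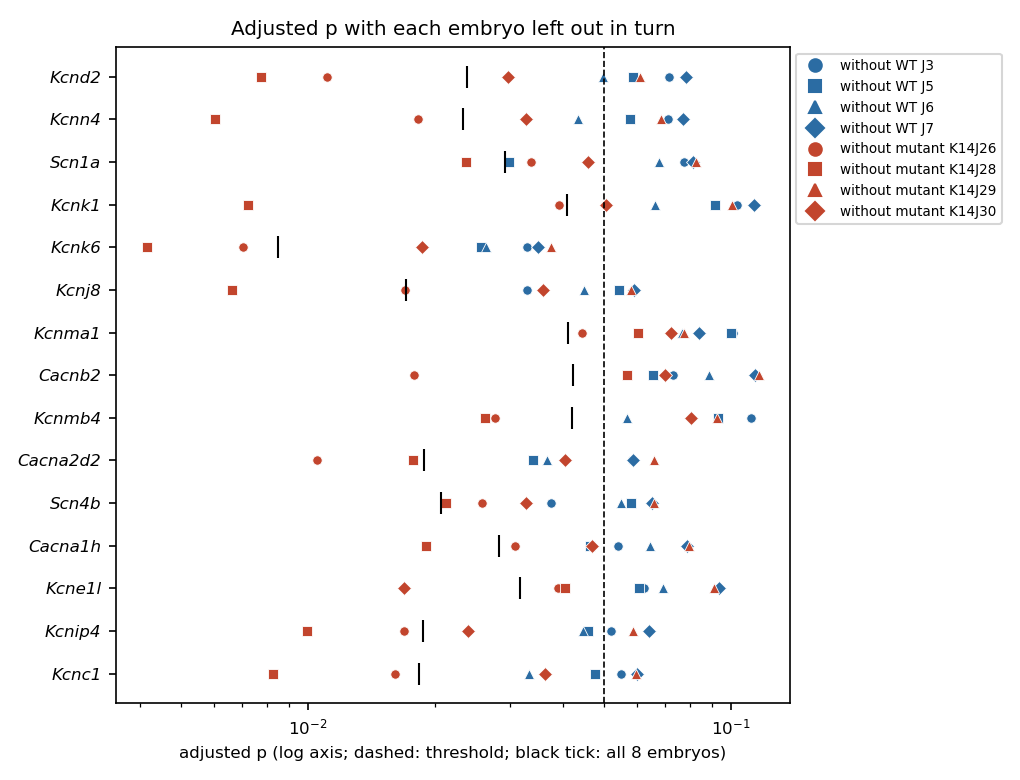
Adjusted p (horizontal log axis) of 15 of the 16 called channel genes with all 8 embryos (black ticks) and with each embryo left out (points, coloured by group), with the threshold of 0.05 as a dashed line. Kcnk6 alone has all its points left of the line, and omitting J3, J5, J6, J7 or K14J29 moves 12, 9, 8, 14 and 14 of the 15 genes past it.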

How the data were processed

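Poly(A) RNA from lower molars of 4 WT and 4 mutant embryos (E18.5) was sequenced (TruSeq RNA v2 kit, which does not mark strand). The authors trimmed reads with Trimmomatic, aligned them as single-end reads with STAR to GRCm38 (GRCm38.p3 in the submitters' processing notes) and deposited a table of raw counts of reads per Ensembl gene for each embryo. The study's methods name GenomicRanges for the counting and the submitters' notes name featureCounts, and its use of strand and of reads with several matches is not given in the sources used here. The labels name Trizol for RNA extraction and the methods the RNeasy kit.

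Symbols, positions, exon lengths and overlaps were taken from GENCODE M21 on GRCm38, which holds 42548 of 43629 identifiers, and upstream windows from RefSeq on GRCm38.p6, which matched 99 of the 134 genes. The 17129 genes that reached 10 counts in 2 or more of the 4 embryos of a group were tested with edgeR 4.0.16 in R 4.3.3 (TMM scaling, factors 0.843 in K14J26, 0.969 in K14J29 and 1.02 to 1.04 otherwise; quasi-likelihood test without covariates; Benjamini-Hochberg adjustment over all genes tested), and a gene was called at an adjusted p under 0.05. Standard errors were obtained as |log2FC| over the root of the F statistic. The procedure was tested on simulated data. With 4 embryos per group, p-values measure the spread between them. No pair of embryos of a group had identical counts or counts within sampling noise.

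The genes, classes and gene lists were chosen with earlier results of these data known. Genes named are the called ones, the highest level per length and the highest and lowest log2 fold change of each class, the 10 highest levels, and Jag1. Transport and marker genes were named where called or beside a channel gene, and others were chosen after their values were seen. Alternatives were other scalings, DESeq2 1.42.0, robust fitting, other count filters, the 20 most abundant genes left out, Xist as a covariate (log2 of CPM + 0.1), a rule with an unadjusted p and the methods' fold change limit (read here on the log2 scale) and the omission of embryos. Neither the authors' morphological data nor their stainings were analysed here. Figures were drawn with matplotlib 3.10.9. Some genes are not reported here by name or in the figures, but are included in the fit and in the counts.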

Additional observations from a re-analysis of the deposited data

Results flagged for a closer look

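Among the 76 combinations of the 38 named channel genes with a group of 4 embryos, 5 held a highest or lowest embryo whose gap to the others exceeded Dixon's 95% critical value for the share of the group's range. Chance alone flags about 1 in 20 such groups. For Kcnj8, WT J3 had 23.2 CPM against 19.3 to 19.9 CPM in the other WT embryos, still below every mutant. For Cacna1g, K14J26 had 100.985 CPM and the other mutants 64.6 to 68.8 CPM. For Cacnb3 it had 115 CPM against 69.3 to 76.9 CPM. For Kcnf1, K14J26 was the lowest mutant, at 18.54 CPM against 26.8 to 27.5 CPM, and for Kcnj3 it was again the lowest, at 0.144 CPM, or 3 counts, against 0.76 to 0.85 CPM. In 4 of the 5 cases the embryo that stood apart was K14J26, which also had the highest sum of enamel markers and the lowest TMM factor, 0.843.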

How the results depend on the processing

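The numbers of called channel genes depended on which embryos were kept more than on scaling, filter or tool. The 8 higher calls became 7 to 11 under the other scalings, filters and tools and the Xist covariate, 13 by an unadjusted p and a limit on the fold change, read here on the log2 scale (6 of the 8 among them), and 1 to 13 with each embryo left out. The 8 lower calls became 8 to 11 under the other scalings, filters and tools, 11 by that rule, 1 with the Xist covariate (4.66% of all genes were lower in that fit), and 0 to 8 with each embryo left out. By embryo, leaving out J3, J5, J6 or J7 gave 2, 2, 4 and 1 higher and 1, 4, 3 and 0 lower channel genes. Of all genes, 2.18%, 2.65%, 5% and 1.77% were higher and 1.68%, 2.28%, 3.24% and 1.39% lower in these fits. Leaving out K14J26, K14J28, K14J29 or K14J30 gave 8, 13, 1 and 6 higher and 8, 8, 0 and 7 lower channel genes. There, 10.3%, 14.6%, 1.48% and 7.87% of all genes were higher and 7.94%, 10.9%, 1% and 4.85% lower. Without J6 and J7 the counts of higher and of lower channel genes were both 0 (11 higher and 9 lower at an unadjusted p under 0.05), beside 0.0178% and 0.0237% of all genes. Without K14J26, J6 and J7, which was added after seeing the data, both were again 0 by edgeR's quasi-likelihood test (13 higher and 11 lower unadjusted), and 0.431% and 0.425% of all genes were called. DESeq2 on all embryos called 11 channel genes higher and 11 lower, beside 13.1% and 10% of all genes. Scaling by library size alone shifted the median of all genes by -0.099 on the log2 scale. It gave 7 higher and 8 lower channel genes, beside 5.04% and 6.22% of all genes. No log2 fold change of a called gene changed sign under any of these. No paired analysis was possible because the embryos of the 2 groups share no numbers. Counts under 10 in most embryos leave 33 detected channel genes untested.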

Other observations

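Some channel genes too scarce for the test differed between embryos, and they were picked after their values were seen. Kcnk12, which encodes the tandem-pore channel THIK-2, had 37 counts in K14J26 and at most 5 in any other embryo. Kcne1, the partner of Kcnq1 in the slow cardiac repolarizing current, had 9, 5, 6 and 20 counts in J3, J5, J6 and J7 and 0, 0, 1 and 3 counts in K14J26, K14J28, K14J29 and K14J30, and Kcnq1 itself had a log2FC of -0.31 ± 0.27 (adjusted p = 0.446). Dpp10, an auxiliary protein of the Kcnd channels, had 3.84 CPM in K14J26 and at most 0.19 CPM elsewhere, in the embryo that was also highest for Kcnd2 (13.9 CPM). Its relative Dpp6 had 0.221 to 0.536 CPM in WT and 0.271 to 0.721 CPM in mutants. None of these differences was tested except those of Kcnq1, Dpp6 and Kcnd2.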
